A study of Mus musculus with 17 samples.

Results

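The genes described here are 8 transcription factors tied to GDNF signalling or to the stem cell state of male germ cells, namely Etv5, Etv4, Bcl6b, Lhx1, Pou3f1, Eomes, T and Pdx1. They were picked by name, with earlier results of these data known. All 8 were found by Entrez gene number among 24013 rows of a count table. RNA sequencing counts were available for 17 libraries of cells sorted from testes of mice of the B6/J X B6/N mixed background carrying Tert-Tomato/+, an allele that reports the telomerase gene Tert by red fluorescence and that every group shared. The sorts gave TERT-High Kit+ cells of adults (KITpos, n = 5), GFRa1+ TERT-High Kit- cells of adults (GFRA1pos, n = 4), GFRa1- TERT-High Kit- cells of adults (GFRA1neg, n = 4) and, from day 6 neonates, TERT+ gonocytes that were also OCT4-GFP+ (P6gonocyte, n = 4). The labels describe the Kit- sorts as undifferentiated spermatogonia and the Kit+ sort as differentiated spermatogonia. No age in days is given for the adults. Neither the origin of the OCT4-GFP reporter nor the number of animals behind a library is stated. Without that number, the spread between libraries behind each p-value may be technical.

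GDNF is a growth factor that somatic cells of the testis, above all Sertoli cells, release to undifferentiated spermatogonia. It binds the co-receptor GFRA1, which was the basis of the GFRa1 sort, and signals through the receptor tyrosine kinase RET to SRC family kinases, PI3 kinase with AKT, and RAS with the MAP kinases. In cultured mouse spermatogonia GDNF keeps stem cells dividing without differentiating, and Etv5, Bcl6b and Lhx1 are among the genes it is known to raise. Etv5 and Etv4 encode ETS domain factors of the PEA3 subfamily, which are widely raised by MAP kinase signalling, and mice without Etv5 lose their spermatogonial stem cells. Bcl6b encodes a BTB zinc finger repressor, Lhx1 a LIM homeodomain factor and Pou3f1 a POU homeodomain factor. Eomes and T (brachyury) encode T-box factors best known from the formation of mesoderm, and Pdx1 a homeodomain factor best known from the pancreas.

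Promoter sequence from RefSeq (GRCm38.p6) was at hand for 5 of the 8 genes, and it is shown because all 5 genes were higher in GFRA1pos than in GFRA1neg cells. Etv4, Bcl6b and Pou3f1 are named only. Each line reads 5' to 3' on the strand of its gene and begins 250 bases before the annotated start, at position -250, where -1 is the last base before the start. The Etv5 and Pdx1 stretches end at -150 and -139 and the Lhx1 stretch at -2, where exons of these genes in GENCODE M21 begin. They lie at chr16:22439720-22439820 (minus strand), chr11:84525536-84525784 (minus), chr9:118477939-118478188 (plus), chr17:8434173-8434422 (plus) and chr5:147269847-147269958 (plus), outside annotated exons of their own genes, and 89 bases of the Lhx1 window lie in exons of the antisense RNA gene Lhx1os. Capitals mark CCAAT, or ATTGG where the motif lies on the other strand.
Etv5: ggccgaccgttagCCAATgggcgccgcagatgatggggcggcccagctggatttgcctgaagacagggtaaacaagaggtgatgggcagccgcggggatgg
Lhx1: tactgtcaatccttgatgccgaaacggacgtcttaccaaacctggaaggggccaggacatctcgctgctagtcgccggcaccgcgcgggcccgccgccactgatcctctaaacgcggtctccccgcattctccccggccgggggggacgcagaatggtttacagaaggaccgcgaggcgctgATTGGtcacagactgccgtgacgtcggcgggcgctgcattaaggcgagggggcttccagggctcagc
Eomes: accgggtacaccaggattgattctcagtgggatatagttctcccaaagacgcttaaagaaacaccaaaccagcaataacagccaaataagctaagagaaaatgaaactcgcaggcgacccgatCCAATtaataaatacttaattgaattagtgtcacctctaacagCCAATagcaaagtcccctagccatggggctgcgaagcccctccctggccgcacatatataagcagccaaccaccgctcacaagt
T: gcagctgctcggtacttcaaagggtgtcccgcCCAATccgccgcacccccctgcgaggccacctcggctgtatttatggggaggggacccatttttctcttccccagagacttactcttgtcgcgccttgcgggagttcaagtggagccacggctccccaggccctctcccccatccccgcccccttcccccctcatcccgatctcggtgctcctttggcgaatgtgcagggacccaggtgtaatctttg
Pdx1: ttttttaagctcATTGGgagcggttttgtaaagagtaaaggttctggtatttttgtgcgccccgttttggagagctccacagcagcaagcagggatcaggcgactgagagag

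A CCAAT box, the site of the general factor NF-Y, was present in 6 of 6 windows of 250 bases before the starts of these 5 genes (Etv5 has 2 starts), against 33.8% of 32851 RefSeq windows of that length. The GC box GGGCGG was in 2 of the 6 windows, those of the first Etv5 start and of T, against 32.7% of all windows, and in T it shared bases with the CCAAT box at position -218. The remaining 7 motifs, searched like these on both strands, were in 0 of the 6 windows. These were the ETS site CCGGAA (12% of all windows), the T-box site AGGTGTGA (1.12%), the homeodomain site TAATTA (4.84%) and the octamer ATGCAAAT (1.6%). The others were the cyclic AMP response element TGACGTCA (1.55%), the TATA box TATAAA (12.4%) and the STAT and BCL6 type site TTCNNNGAA (7.02%). Only these letters were searched. Shorter ETS cores such as GGAA, and TATA variants such as tatataag in the Eomes line, were not counted. The window of the first Etv5 start had 71.2% G and C with 27 CpG and that of Eomes 46.4% with 8 CpG, against medians of 52.4% and 6 CpG over all windows. These are counts of letters in 9 chosen motifs, and CCAAT was put in capitals after its count was known.

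Library totals were 5178352 to 8300165 counts in KITpos, 10918223 to 11567191 counts in GFRA1pos, 9965437 to 12641907 counts in GFRA1neg and 6479216 to 8468203 counts in P6gonocyte. Levels are given as CPM on TMM-scaled library sizes (scaled CPM). The sort genes followed the labels, with Gfra1 at 390 ± 28.9 scaled CPM (SD, n = 4) in GFRA1pos and 22.8 ± 3.32 in GFRA1neg (n = 4), and Kit at 353 ± 76.3 in KITpos (n = 5) and 27.6 ± 14.7 in GFRA1neg (n = 4). Pou5f1, which encodes OCT4, averaged 3.09 ± 1 scaled CPM in GFRA1pos and 19.7 ± 9.56 in P6gonocyte (n = 4 each). P6gonocyte replicate 2 stood apart, with Pou5f1 at 5.53 scaled CPM in it and at 23.1, 26.3 and 24.1 in replicates 1, 3 and 4. Its chi-square per degree of freedom was 21.3 to 34.6 against those libraries, which had 4.13 to 7.59 among themselves. Without it, GFRA1pos minus P6gonocyte had 5 of the 8 factors called higher in place of 6, GFRA1neg minus P6gonocyte 5 lower in place of 6 and 1 higher as before, and KITpos minus P6gonocyte 6 lower as before. The 5 germ cell markers Zbtb16, Sall4, Lin28a, Dazl and Ddx4 summed to 876 to 1000 scaled CPM in KITpos and 1380 to 1700 in GFRA1pos. They summed to 1630 to 2380 in GFRA1neg and 1560 to 2020 in P6gonocyte. In KITpos and GFRA1pos, Zbtb16 averaged 39.3 and 291, Sall4 134 and 581, and Lin28a 90.8 and 305. Dazl went the other way, at 562 in KITpos and 264 in GFRA1pos, and Ddx4 stood at 132 and 124. Markers of other cells were lower, apart from 4 spermatid transcripts (Prm1, Prm2, Tnp1, Tnp2), which summed to 239 to 944 in KITpos, 47.6 to 1320 in GFRA1pos, 234 to 1090 in GFRA1neg and 0.621 to 2.22 in P6gonocyte. In these bulk samples, fewer cells that express a gene and less of its RNA per cell cannot be told apart.

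All 8 factors had their highest mean level in GFRA1pos. Per kilobase of exon, their mean levels there were 103 scaled CPM for Etv5, 24.2 for Bcl6b, 11.3 for Etv4, 6.54 for Eomes, 4.67 for Pou3f1, 4.38 for Lhx1, 3.85 for Pdx1 and 2.86 for T, so that Etv5 stood well above the other 7. The other groups stood at very different shares of the GFRA1pos mean depending on the gene. In P6gonocyte the mean level was 85.7% of that in GFRA1pos for Lhx1, 84.6% for Bcl6b, 60.8% for Pou3f1, 41.2% for Etv4, 39.1% for Etv5, 24.5% for T, 19% for Eomes and 1.08% for Pdx1. In KITpos it was 47% for Pou3f1 and at most 6.4% for the other 7.

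**Figure D1:**
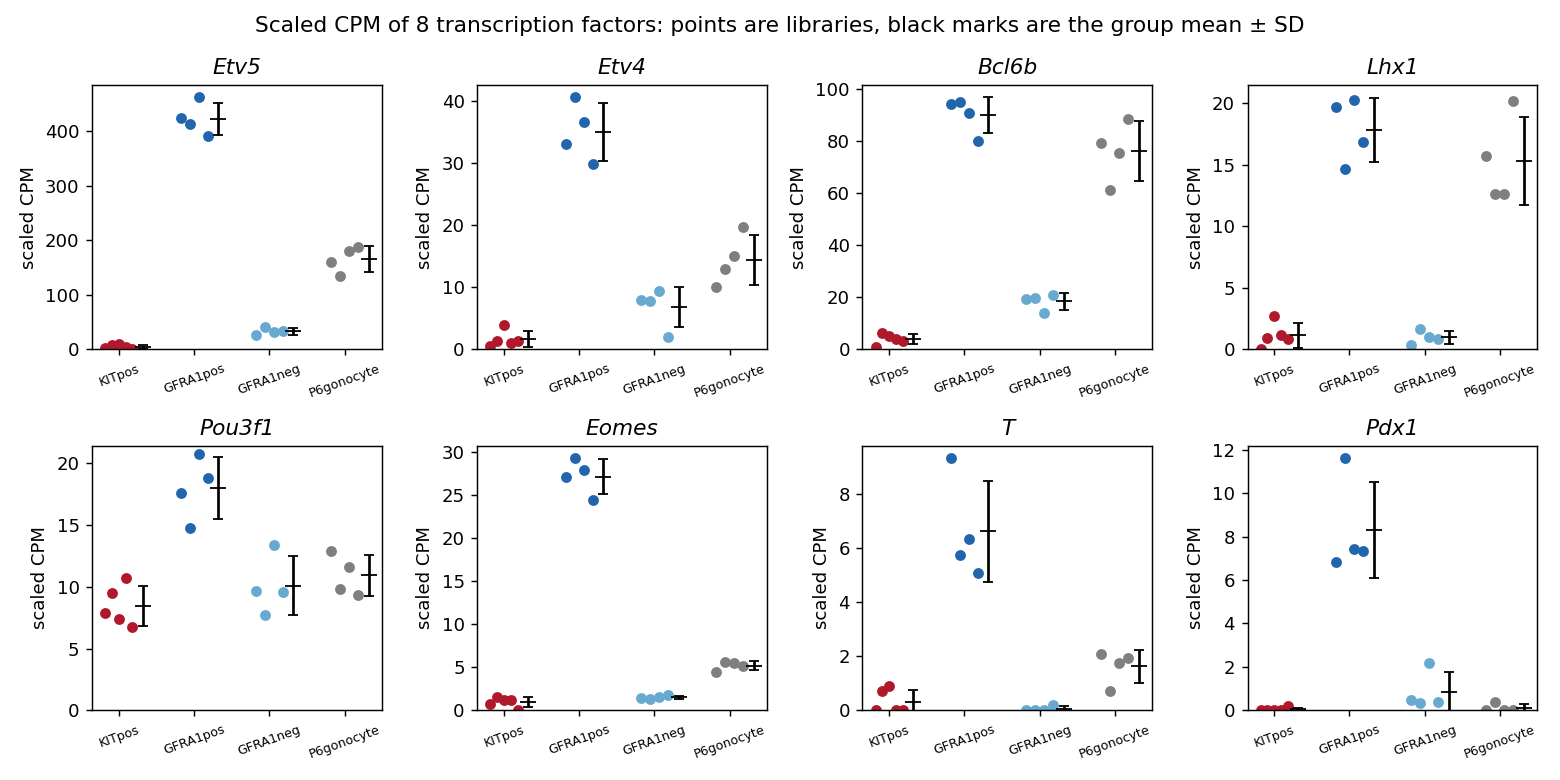
Scaled CPM (vertical axes, linear, starting at 0, with a scale of its own for each gene) of the 8 transcription factors in each library of KITpos, GFRA1pos, GFRA1neg and P6gonocyte. Points are libraries and black marks are group means with SD, cut off at 0. GFRA1pos has the highest mean in each panel, and its libraries overlap those of P6gonocyte in the Bcl6b and Lhx1 panels.

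The ETS factors and the repressor differed in graded steps between groups. Etv5 had 2.24, 7.42, 10.6, 4.09 and 1.39 scaled CPM in the KITpos libraries and 425, 414, 462 and 392 in the GFRA1pos libraries. It had 26.3, 40.9, 32 and 34 in GFRA1neg and 161, 134, 180 and 188 in P6gonocyte. No group overlapped another, and the levels ran in the order GFRA1pos, P6gonocyte, GFRA1neg, KITpos. Etv4, its close relative, had 0.56, 1.39, 3.89, 1.02 and 1.39 scaled CPM in KITpos and 33.1, 40.5, 36.6 and 29.7 in GFRA1pos. It had 8, 7.84, 9.36 and 2.07 in GFRA1neg and 10.0, 13, 15 and 19.6 in P6gonocyte. Its order of means was that of Etv5, but KITpos replicate 3 lay above GFRA1neg replicate 4. Bcl6b had 1.12, 6.15, 5.06, 4.09 and 3.12 scaled CPM in KITpos and 94.1, 94.7, 90.5 and 80.1 in GFRA1pos. It had 19.4, 19.7, 13.9 and 20.9 in GFRA1neg and 79.3, 61, 75.1 and 88.5 in P6gonocyte. Here GFRA1pos and P6gonocyte overlapped, and both lay above GFRA1neg and KITpos.

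The homeodomain factors showed 3 different patterns. Lhx1 had 0, 0.928, 2.72, 1.19 and 0.866 scaled CPM in KITpos and 19.7, 14.6, 20.2 and 16.8 in GFRA1pos. It had 0.376, 1.68, 1.04 and 0.888 in GFRA1neg and 15.7, 12.6, 12.6 and 20.2 in P6gonocyte. Lhx1 was thus high in GFRA1pos and P6gonocyte, which overlapped, and low in GFRA1neg and KITpos, which also overlapped. Pou3f1 had 7.84, 9.51, 7.39, 10.8 and 6.76 scaled CPM in KITpos and 17.6, 14.7, 20.7 and 18.8 in GFRA1pos. It had 9.69, 7.68, 13.4 and 9.58 in GFRA1neg and 12.9, 9.86, 11.6 and 9.34 in P6gonocyte. GFRA1pos stood alone at the top for Pou3f1 and the other 3 groups overlapped each other. Pdx1 had 0.173 scaled CPM in KITpos replicate 5 and 0 in the other 4 KITpos libraries, and 6.83, 11.6, 7.45 and 7.35 in GFRA1pos. It had 0.47, 0.32, 2.19 and 0.395 in GFRA1neg, and in P6gonocyte 0.361 in replicate 2 and 0 in the other 3 libraries. A library at 0 counts allows up to 0.348 to 0.52 scaled CPM in KITpos and 0.311 to 0.417 in P6gonocyte, taking 3 counts as the limit.

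The T-box factors were both highest in GFRA1pos with P6gonocyte next. Eomes had 0.7, 1.51, 1.17, 1.19 and 0 scaled CPM in KITpos and 27.1, 29.3, 27.9 and 24.4 in GFRA1pos. It had 1.41, 1.28, 1.5 and 1.78 in GFRA1neg and 4.44, 5.65, 5.49 and 5.08 in P6gonocyte. Eomes libraries of GFRA1neg and KITpos overlapped, and the other groups stood apart. T had 0.696 and 0.908 scaled CPM in KITpos replicates 2 and 3 and 0 in the other 3, and 9.31, 5.76, 6.34 and 5.07 in GFRA1pos. It had 0.197 in GFRA1neg replicate 4 and 0 in the other 3 GFRA1neg libraries, and 2.08, 0.721, 1.76 and 1.92 in P6gonocyte. The T libraries of GFRA1pos lay above all others, and P6gonocyte replicate 2 fell within the KITpos range. Genes that overlap Eomes (Gm33408), T (LOC115486424) and Pdx1 (Plut) are annotated, and since the use of strand in counting is not given, their reads could not be told from those of these factors.

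All 8 factors passed the count filter, which asked for at least 1.18 CPM in 4 or more libraries. T and Pdx1 passed through GFRA1pos alone, so they entered the test only because they were high there. Differences were tested with edgeR's quasi-likelihood test over 15451 genes, with Benjamini-Hochberg adjusted p-values. The 6 comparisons between groups share libraries and are not independent of each other.

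The first comparison asked how GFRA1pos cells differ from GFRA1neg cells of the same Kit- adult gate. All 8 factors were higher in GFRA1pos, where 7.3% of all genes tested were higher and 6.84% lower. Their median log2 fold change was 3.49 beside -0.04 over all genes tested. T and Pdx1 are in this count and median, though they entered the test only because they were high in GFRA1pos. Their calls in this comparison are thus no independent support. Etv5 had a mean of 423 ± 29.2 scaled CPM in GFRA1pos and 33.3 ± 5.99 in GFRA1neg (SD, n = 4 each), and its log2 fold change was 3.67 ± 0.33 (SE; edgeR adjusted p = 4.1e-07). Eomes rose by 4.18 ± 0.39 on the log2 scale (edgeR adjusted p = 7.1e-07) and Lhx1 by 4.13 ± 0.53 (2.7e-05), 18.1-fold and 17.5-fold. Etv4 and Bcl6b rose 5.13-fold and 4.86-fold, with log2 fold changes of 2.36 ± 0.41 (edgeR adjusted p = 0.00063) and 2.28 ± 0.25 (6.1e-06). Pdx1 rose by 3.32 ± 0.68 (edgeR adjusted p = 0.0023). For T, GFRA1pos had 287 counts in all and GFRA1neg had 2, a ratio of 139 with a 95% exact interval of 38.1 to 1150 for counting error alone (edgeR adjusted p = 0.00011). Pou3f1 had the smallest change, 1.78-fold or 0.84 ± 0.22 on the log2 scale (edgeR adjusted p = 0.014).

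Markers of other cells moved with this comparison in both directions. Summed levels were 17.1 to 20.4 scaled CPM in GFRA1pos and 12.3 to 14.7 in GFRA1neg for 5 macrophage markers, of which Ptprc was at 0 in every GFRA1neg library and Adgre1 averaged 0.0943 in GFRA1pos and 0.12 in GFRA1neg. Mrc1 was the macrophage marker called higher, at 9.03 scaled CPM in GFRA1pos and 1.07 in GFRA1neg (log2 fold change 3.02 ± 0.62, edgeR adjusted p = 0.0025), while Cd68 averaged 7.51 in GFRA1pos and 10.5 in GFRA1neg (edgeR adjusted p = 0.4). For 4 endothelial markers the sums were 19.8 to 27.1 in GFRA1pos and 13.5 to 17.9 in GFRA1neg. Of these, Kdr was called higher, at 6.41 in GFRA1pos and 1 in GFRA1neg (2.65 ± 0.52, edgeR adjusted p = 0.0016). So was Tek, at 7.6 in GFRA1pos and 3.15 in GFRA1neg (1.27 ± 0.38, edgeR adjusted p = 0.029). Cdh5 was not called, at 7.955 in GFRA1pos and 7.581 in GFRA1neg (edgeR adjusted p = 0.93). Pecam1 went the other way, at 2.76 in GFRA1pos and 3.96 in GFRA1neg, and was not called either (edgeR adjusted p = 0.53). For 6 Sertoli markers the sums were 6.33 to 10.6 in GFRA1pos and 16.4 to 24.1 in GFRA1neg. Of these, Wt1 (-1.96 ± 0.58, edgeR adjusted p = 0.03) and Gata4 (-1.73 ± 0.39, 0.0053) were called lower in GFRA1pos. Amh averaged 0.805 in GFRA1pos and 0.207 in GFRA1neg, and Cldn11 0.602 and 0.358, the other way. Gdnf itself averaged 0.169 in GFRA1pos and 0.21 in GFRA1neg. The 2 markers of differentiation, Stra8 and Sohlh2, summed to 79.6 to 98.2 in GFRA1pos and 56.3 to 69.6 in GFRA1neg. Stra8 was called higher in GFRA1pos (1.24 ± 0.23, edgeR adjusted p = 0.00098) and Sohlh2 was not (0.26). The part of these cells in the 8 differences was not tested. Spermatid transcripts summed to 47.6 to 1320 in GFRA1pos and 234 to 1090 in GFRA1neg. Without the 4 libraries highest in these transcripts, an alternative chosen after the data were seen, 8 of 8 factors were called higher. T and Pdx1 are again in this count. Those libraries were not chosen by the macrophage, endothelial or Sertoli markers, so this fit says nothing on the part of those cells.

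The next comparison, of KITpos against GFRA1neg, followed the gain of Kit. Of the 8 factors, 4 were lower in KITpos, where 23% of all genes tested were lower and 22.1% higher. Bcl6b averaged 3.91 ± 1.92 scaled CPM in KITpos (n = 5) and 18.5 ± 3.14 in GFRA1neg (n = 4), a fall of 4.65-fold (log2 fold change -2.22 ± 0.26, edgeR adjusted p = 1.6e-06). Etv5 fell 6.25-fold (-2.64 ± 0.32, edgeR adjusted p = 2.1e-06) and Etv4 4.03-fold (-2.01 ± 0.43, 8e-04), and the Etv4 libraries overlapped. Pdx1 had 1 count in KITpos and 32 in GFRA1neg, a ratio of 26.8 lower with an exact interval of 4.48 to 1090 (edgeR adjusted p = 0.0025). Eomes at -0.65 ± 0.4 (edgeR adjusted p = 0.2), Pou3f1 at -0.25 ± 0.21 (0.35) and Lhx1 at 0.2 ± 0.55 (0.8) did not pass. T had 13 counts in KITpos and 2 in GFRA1neg, a ratio of 7.76 with an exact interval of 1.76 to 70.8, and did not pass either (edgeR adjusted p = 0.07, unadjusted p = 0.0334). With T short of the threshold, 0 factors were called higher in KITpos by edgeR, 1 at an unadjusted p under 0.05 and 1 by DESeq2. T was called higher in KITpos without GFRA1neg replicate 4 (adjusted p = 0.024) and without KITpos replicates 1, 4 or 5 (0.037, 0.041 and 0.041), and by DESeq2 (0.044). GFRA1neg replicate 4 was the sole GFRA1neg library with a T count, and those KITpos libraries had none. Omitting any other replicate did not give the call. Leydig cell markers summed to 21.5 to 87.8 scaled CPM in KITpos and 9.77 to 25.4 in GFRA1neg, macrophage markers to 4.16 to 8.54 in KITpos and 12.3 to 14.7 in GFRA1neg, and endothelial markers to 4.17 to 5.89 in KITpos and 13.5 to 17.9 in GFRA1neg. Of the macrophage markers, only Cd68 had a lower mean in KITpos, at 2.98 against 10.5 in GFRA1neg. Csf1r averaged 2.09 in KITpos and 1.9 in GFRA1neg, Mrc1 1.57 and 1.07, Adgre1 0.188 and 0.12, and Ptprc 0.0259 and 0. The endothelial marker Pecam1 was lower in KITpos (-3.61 ± 0.54, edgeR adjusted p = 2e-05). Germ cell and differentiation markers moved too. Zbtb16 (-3.36 ± 0.2, edgeR adjusted p = 4e-10), Lin28a (-2.92 ± 0.15, 2.6e-11) and Sall4 (-1.79 ± 0.23, 4e-06) were lower in KITpos. Dazl (0.46 ± 0.16, edgeR adjusted p = 0.02) and Stra8 (4.64 ± 0.24, 4.9e-11) were higher, and Ddx4 was not called (0.09). The Sertoli marker Gata4 was lower (-0.96 ± 0.36, edgeR adjusted p = 0.037), and Wt1 and Sox9 were not called. The part of these cells and markers in the differences was not tested.

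Across the ends of the adult series, KITpos against GFRA1pos, all 8 factors were lower in KITpos, where 23.7% of all genes tested were lower and 24.9% higher. This count includes T and Pdx1, which entered the test only because they were high in GFRA1pos. Etv5 averaged 5.16 ± 3.84 scaled CPM in KITpos (n = 5) and 423 ± 29.2 in GFRA1pos (n = 4), a 79.3-fold fall (log2 fold change -6.31 ± 0.35, edgeR adjusted p = 8.8e-11). Eomes fell 28.4-fold, Bcl6b 22.6-fold, Etv4 20.7-fold, T 18.2-fold and Lhx1 15.3-fold, with edgeR adjusted p-values from 2.5e-10 to 0.00012. Pdx1 had 1 count in KITpos and 357 in GFRA1pos, a ratio of 290 lower with an exact interval of 51.6 to 11500. Pou3f1 fell by 1.09 ± 0.21 on the log2 scale, 2.12-fold (edgeR adjusted p = 0.00025). Endothelial markers summed to 4.17 to 5.89 scaled CPM in KITpos and 19.8 to 27.1 in GFRA1pos, macrophage markers to 4.16 to 8.54 in KITpos and 17.1 to 20.4 in GFRA1pos, and Leydig cell markers to 21.5 to 87.8 in KITpos and 13.8 to 25.3 in GFRA1pos. Zbtb16 (-2.88 ± 0.2, edgeR adjusted p = 2e-09), Lin28a (-1.74 ± 0.14, 1.3e-08) and Sall4 (-2.11 ± 0.23, 5.2e-07) were lower in KITpos. Dazl (1.09 ± 0.16, edgeR adjusted p = 1.5e-05) and Stra8 (3.41 ± 0.23, 1.1e-09) were higher, and Ddx4 was not called (0.66). The part of these cells and markers in these differences was not tested.

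**Figure D2:**
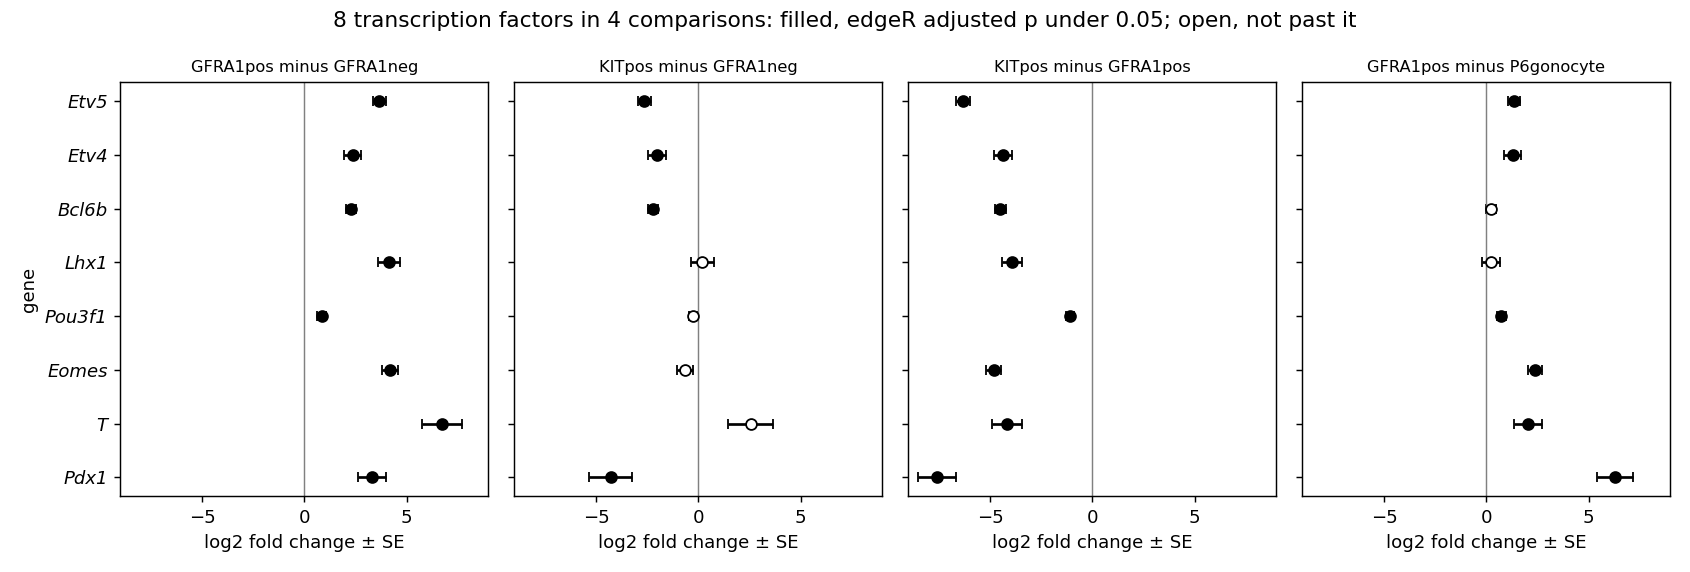
Log2 fold change with its SE (horizontal axes) of the 8 transcription factors in 4 comparisons between groups. Filled points passed an edgeR adjusted p of 0.05 and open points did not. All 8 points lie right of 0 in GFRA1pos minus GFRA1neg and left of 0 in KITpos minus GFRA1pos. The T and Pdx1 points rest on groups with 1 to 3 counts in several panels. Both genes entered the test only because they were high in GFRA1pos.

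Adult GFRA1pos cells were then compared with gonocytes of day 6. Of the 8 factors, 6 were higher in GFRA1pos, where 21.9% of all genes tested were higher and 17.3% lower. Among the 6 are T and Pdx1, which entered the test only because they were high in GFRA1pos. Eomes averaged 27.2 ± 2.05 scaled CPM in GFRA1pos and 5.17 ± 0.54 in P6gonocyte (SD, n = 4 each), or 2.39 ± 0.35 on the log2 scale (edgeR adjusted p = 7.1e-05). Etv5 rose by 1.35 ± 0.3 (edgeR adjusted p = 0.0016), Etv4 by 1.28 ± 0.4 (0.016) and Pou3f1 by 0.72 ± 0.22 (0.014). Pdx1 had 357 counts in GFRA1pos and 3 in P6gonocyte, a ratio of 89.2 with an exact interval of 30.3 to 435 (edgeR adjusted p = 4.9e-05). T rose by 2.02 ± 0.69 (edgeR adjusted p = 0.026). Bcl6b at 0.24 ± 0.24 (edgeR adjusted p = 0.44) and Lhx1 at 0.22 ± 0.44 (0.72) did not pass, and their libraries overlapped. The T call was lost without GFRA1pos replicate 1 (1.81, adjusted p = 0.066) and without P6gonocyte replicates 2 (1.78, 0.073), 3 (2.07, 0.057) or 4 (2.11, 0.052), and the Etv4 call without P6gonocyte replicate 1 (1.14, 0.056).

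**Figure D3:**
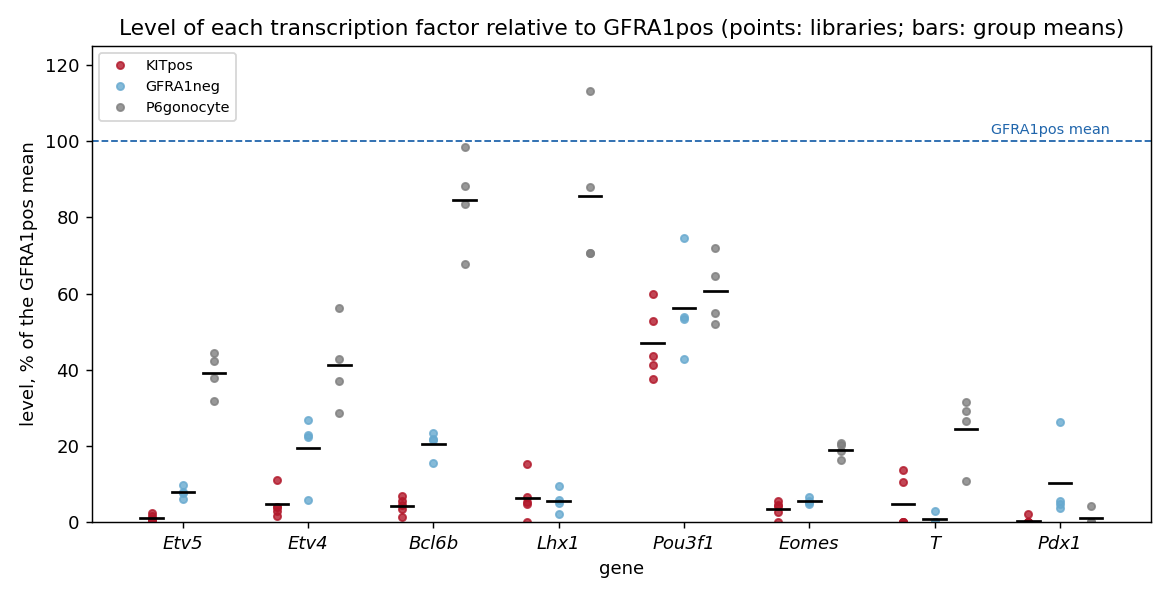
Level of each transcription factor in KITpos, GFRA1neg and P6gonocyte libraries as a percentage (vertical axis, linear) of its GFRA1pos mean, which is the dashed line at 100%. Points are libraries and black bars group means. P6gonocyte means run from 1.08% for Pdx1 to 85.7% for Lhx1, and Pou3f1 is the gene whose KITpos and GFRA1neg means are highest, at 47% and 56.1%.

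Spermatid transcripts differed between these ages, as given above, and Sertoli markers summed to 6.33 to 10.6 scaled CPM in GFRA1pos and 18.7 to 47 in P6gonocyte. Endothelial markers summed to 19.8 to 27.1 in GFRA1pos and 13.5 to 16.4 in P6gonocyte, and macrophage markers to 17.1 to 20.4 in GFRA1pos and 8.59 to 12.4 in P6gonocyte. Differentiation markers moved with this comparison too. Kit averaged 17.6 scaled CPM in GFRA1pos and 188 in P6gonocyte (log2 fold change -3.41 ± 0.28, edgeR adjusted p = 4.4e-07), and Stra8 23.4 in GFRA1pos and 73.5 in P6gonocyte (-1.65 ± 0.22, 3.2e-05). The labels name a Kit- gate for GFRA1pos and no Kit gate for P6gonocyte. The part of these cells and markers in the differences was not tested.

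Against the same gonocytes, GFRA1neg had 6 of the 8 factors lower and 1 higher, where 18.8% of all genes tested were lower and 24.9% higher. Lhx1 fell 15-fold (log2 fold change -3.9 ± 0.53, edgeR adjusted p = 2.1e-05), Etv5 4.97-fold (-2.31 ± 0.31, 2e-05) and Bcl6b 4.11-fold (-2.04 ± 0.25, 9.4e-06). T had 2 counts in GFRA1neg and 52 in P6gonocyte, a ratio of 33.6 lower with an exact interval of 8.84 to 285. Etv4 fell by 1.08 ± 0.41 (edgeR adjusted p = 0.038) and Eomes by 1.79 ± 0.37 (0.00088), while Pou3f1 at -0.12 ± 0.22 (0.69) did not pass. Pdx1 was the gene called higher, with 32 counts in GFRA1neg and 3 in P6gonocyte and a ratio of 8.26 (exact interval 2.58 to 42.1, edgeR adjusted p = 0.015). The Pdx1 call was lost without GFRA1neg replicate 3 (adjusted p = 0.093). The Etv4 call was lost without GFRA1neg replicate 4 (-0.78, adjusted p = 0.098) and without P6gonocyte replicates 2 (-1.13, 0.051), 3 (-1.06, 0.07) or 4 (-0.9, 0.11). Macrophage markers summed to 12.3 to 14.7 scaled CPM in GFRA1neg and 8.59 to 12.4 in P6gonocyte. Of these, Cd68 averaged 10.5 in GFRA1neg and 4.84 in P6gonocyte, and Mrc1 went the other way (1.07 and 4.78). Spermatid transcripts summed to 234 to 1090 in GFRA1neg and 0.621 to 2.22 in P6gonocyte. Kit averaged 27.6 in GFRA1neg and 188 in P6gonocyte (-2.76 ± 0.27, edgeR adjusted p = 9.8e-07), and Stra8 9.9 and 73.5 (-2.89 ± 0.23, 1.2e-07). Sertoli markers summed to 16.4 to 24.1 in GFRA1neg and 18.7 to 47 in P6gonocyte, which overlap. Of these, Amh (-4.21 ± 0.91, edgeR adjusted p = 0.0012) and Sox9 (-1.78 ± 0.58, 0.018) were lower in GFRA1neg. Wt1 went the other way, at 9.66 in GFRA1neg and 4.8 in P6gonocyte, and was not called (edgeR adjusted p = 0.16). Gata4 averaged 8.97 in GFRA1neg and 10.59 in P6gonocyte and was not called either (edgeR adjusted p = 0.63). The part of these cells and markers in the differences was not tested.

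KITpos had 6 of the 8 factors lower than P6gonocyte, where 21.8% of all genes tested were lower and 27.3% higher. Etv5 fell 31-fold (log2 fold change -4.96 ± 0.33, edgeR adjusted p = 2.2e-09), Bcl6b 19.1-fold (-4.26 ± 0.27, 1.1e-09), Lhx1 13.1-fold, Etv4 8.52-fold and Eomes 5.42-fold. T fell by 2.16 ± 0.76 (edgeR adjusted p = 0.025) with overlapping libraries. The T call was lost without KITpos replicate 1 (-1.86, adjusted p = 0.051), without P6gonocyte replicates 1 (-2.03, 0.057), 3 (-2.13, 0.051) or 4 (-2.08, 0.053), and without the 4 libraries highest in spermatid transcripts (-1.5, 0.1). Pou3f1 at -0.37 ± 0.21 (edgeR adjusted p = 0.15) did not pass. Pdx1 had 1 count in KITpos and 3 in P6gonocyte, too few for a comparison. Endothelial markers summed to 4.17 to 5.89 scaled CPM in KITpos and 13.5 to 16.4 in P6gonocyte, macrophage markers to 4.16 to 8.54 in KITpos and 8.59 to 12.4 in P6gonocyte, Leydig cell markers to 21.5 to 87.8 in KITpos and 9.5 to 15 in P6gonocyte, and spermatid transcripts to 239 to 944 in KITpos and 0.621 to 2.22 in P6gonocyte. Of the macrophage markers, Csf1r (2.09 in KITpos and 0.855 in P6gonocyte) and Adgre1 (0.188 and 0.0301) went the other way. Sertoli markers summed to 3.98 to 19.6 in KITpos and 18.7 to 47 in P6gonocyte. Amh (-4.12 ± 0.87, edgeR adjusted p = 0.00076), Sox9 (-2.3 ± 0.56, 0.0025) and Gata4 (-1.2 ± 0.36, 0.01) were called lower, and Wt1 was not. Kit (0.91 ± 0.24, edgeR adjusted p = 0.0048) and Stra8 (1.76 ± 0.21, 3.2e-06) were higher in KITpos. The part of these cells and markers in the differences was not tested.

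Whether the factors kept a fixed ratio to each other was compared between groups. The ratio of each factor to Etv5 within a library was taken as a log2 difference of scaled CPM with 0.5 added, a measure chosen after the data were seen. Relative to Etv5, Bcl6b stood at -2.23 ± 0.1 in GFRA1pos and -1.12 ± 0.1 in P6gonocyte (SD, n = 4 each), a difference of -1.11, and Lhx1 at -4.54 ± 0.16 in GFRA1pos and -3.41 ± 0.26 in P6gonocyte, a difference of -1.13. Eomes stood at -3.94 ± 0.1 in GFRA1pos and -4.87 ± 0.29 in P6gonocyte, a difference of 0.93 in the opposite direction. For Bcl6b, Lhx1, Pou3f1 (-0.67) and Eomes the libraries of the 2 groups did not overlap, and each had p = 0.0286 in a two-sided exact permutation test, the smallest that 4 against 4 libraries allow. With 0.1 added the 4 differences were -1.11, -1.13, -0.65 and 1.01. Etv4 (-0.08, exact permutation p = 0.686) and T (0.41, p = 0.114) did overlap. The Pdx1 difference was 2.55 with 0.5 added and 4.45 with 0.1, and its size is set by that value, since 3 of the 4 P6gonocyte libraries had no Pdx1 count. Relative to Etv5, Pou3f1 stood at -4.53 ± 0.18 in GFRA1pos and -1.68 ± 0.49 in GFRA1neg, a difference of -2.84, and Bcl6b differed by -1.4 (exact permutation p = 0.0286 each). In the same comparison Etv4 differed by -1.23 and Pdx1 by -0.79 (exact permutation p = 0.143 each), Eomes by 0.13 (p = 0.629), Lhx1 by 0.02 (p = 0.914) and T by 0.01 (p = 1). With 0.1 added these last 3 were 0.42, 0.49 and 1.96, and T had no count in 3 of the 4 GFRA1neg libraries. The lowest adjusted p over the 14 ratios tested was 0.057 in this exact permutation test, so none passed 0.05.

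Other genes that GDNF or its effectors raise in cultured mouse spermatogonia, 12 in all, were set beside the 8 factors. Both this list and the signalling list below were chosen with earlier results of these data known. Their counts are thus no independent support. In GFRA1pos minus GFRA1neg 10 of the 12 were higher and 1 lower, with a median log2 fold change of 2.07, beside 7.3% of all genes higher and 6.84% lower. The zinc finger factor Egr2 averaged 216 ± 22.3 scaled CPM in GFRA1pos and 11 ± 1.93 in GFRA1neg (SD, n = 4 each), or 4.3 ± 0.23 on the log2 scale (edgeR adjusted p = 1.2e-09). Dusp6, a phosphatase that dampens MAP kinases, rose by 3.63 ± 0.3 (edgeR adjusted p = 2e-07), Ccnd2, a G1 cyclin, by 2.24 ± 0.17 (1e-07), and the MAP kinase inhibitors Spry4 by 3.34 ± 0.46 and Spry2 by 2.46 ± 0.34 (5.7e-05 each). Mycn, named after its value was seen as the 1 lower gene, averaged 30.4 ± 6.18 scaled CPM in GFRA1pos and 63.4 ± 8.59 in GFRA1neg (log2 fold change -1.06 ± 0.18, edgeR adjusted p = 0.00044). Nanos2, an RNA-binding protein of stem cells, stood at 0.35 ± 0.47 (edgeR adjusted p = 0.7).

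In KITpos minus GFRA1neg 9 of these 12 genes were lower and 1 higher, beside 23% of all genes lower and 22.1% higher. Their median log2 fold change was -1.67 beside 0.03 over all genes. Mycn fell by 1.71 ± 0.17 (edgeR adjusted p = 2.2e-07), Dusp6 by 2.99 ± 0.35 (1.4e-06), Egr2 by 1.64 ± 0.23 (9.1e-06) and Nanos2 by 3.92 ± 0.55 (1.1e-05). The 1 higher gene, named after its value was seen, was the G1 cyclin Ccne1 (1.39 ± 0.25, edgeR adjusted p = 0.00017). In KITpos minus GFRA1pos 11 of 12 were lower, beside 23.7% of all genes. Egr2 fell by 5.95 ± 0.23 (edgeR adjusted p = 1.2e-12), Dusp6 fell by 6.63 ± 0.35 (5.2e-11), Ccnd2 fell by 2.87 ± 0.16 (1.3e-10) and Spry4 fell by 6.5 ± 0.53 (1.4e-08), and Ccne1 at 0.3 ± 0.24 (edgeR adjusted p = 0.33) did not pass. In GFRA1pos minus P6gonocyte 6 of 12 were higher and 1, Mycn, lower (-0.62 ± 0.18, edgeR adjusted p = 0.011), with a median of 1 beside 0.05 over all genes, of which 21.9% were higher and 17.3% lower. Spry2 rose by 2.06 ± 0.33 there (edgeR adjusted p = 0.00017), Egr3, a relative of Egr2, by 1.95 ± 0.49 (0.0043), Egr2 by 1.62 ± 0.2 (1.8e-05) and Dusp6 by 1.17 ± 0.27 (0.0024). In GFRA1neg minus P6gonocyte 7 of 12 were lower, beside 18.8% of all genes. In KITpos minus P6gonocyte 10 were lower and 1 higher, beside 21.8% of all genes lower and 27.3% higher.

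Signalling genes that carry GDNF's message were called in both directions. Of 23 receptor, kinase and adaptor genes 22 were tested, all but Lyn, which was too low. In GFRA1pos minus GFRA1neg 6 were higher and 4 lower, with a median log2 fold change of 0.25, beside 7.3% of all genes higher and 6.84% lower. Fyn, a SRC family kinase, rose by 1.3 ± 0.16 (edgeR adjusted p = 2.1e-05), and the adhesion molecule Ncam1, an alternative GDNF receptor, by 1.73 ± 0.35 (0.0024). Ret averaged 393 ± 33 scaled CPM in GFRA1pos and 148 ± 22.5 in GFRA1neg, a rise of 1.41 ± 0.23 (edgeR adjusted p = 0.00028), and the adaptor Gab2 fell by 0.55 ± 0.14 (0.014). The 6 higher became 3 without GFRA1pos replicate 3 or GFRA1neg replicate 2. The 4 lower (Akt1, Yes1, Gab2 and Mapk3, named after their values were seen) became 2 without GFRA1pos replicates 1 or 4 or GFRA1neg replicates 1, 3 or 4, and 1 without GFRA1pos replicates 2 or 3.

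In KITpos the receptor itself was low. Ret averaged 6.42 ± 3.37 scaled CPM in KITpos (n = 5) and 148 ± 22.5 in GFRA1neg (n = 4), which is -4.51 ± 0.25 on the log2 scale (edgeR adjusted p = 1.2e-10), the largest change of the 22. In that comparison 10 signalling genes were lower and 4 higher, or 7 higher without GFRA1pos replicate 4, beside 23% of all genes lower and 22.1% higher. The kinases Mapk3 and Akt2 fell by 1.37 ± 0.12 (edgeR adjusted p = 2.7e-08) and 1.05 ± 0.13 (2e-06), and the adaptor Frs2 fell by 1.12 ± 0.14 (3.2e-06). In KITpos minus GFRA1pos 13 were lower and 5 higher, beside 23.7% of all genes lower and 24.9% higher. Ret fell by 5.91 ± 0.26 there (edgeR adjusted p = 6.6e-12), Fyn fell by 2.46 ± 0.16 (6.7e-10), Mapk3 fell by 0.99 ± 0.12 (1.1e-06) and Pik3ca, a catalytic subunit of PI3 kinase, fell by 1.49 ± 0.18 (1.2e-06). In GFRA1pos minus P6gonocyte 6 were higher and 2 lower, beside 21.9% of all genes higher and 17.3% lower. Gab1 rose by 0.64 ± 0.13 (edgeR adjusted p = 0.00075), Pik3r1 by 1 ± 0.2 (0.00082), Ret by 1.03 ± 0.23 (0.0016) and Mapk3 by 0.43 ± 0.12 (0.01). Those 2 lower became 1 without GFRA1pos replicates 2, 3 or 4, GFRA1neg replicates 1, 3 or 4 or P6gonocyte replicates 3 or 4, and 0 without P6gonocyte replicate 2. In GFRA1neg minus P6gonocyte 7 were higher and 6 lower, beside 24.9% of all genes higher and 18.8% lower. In KITpos minus P6gonocyte 4 were higher and 8 lower, beside 27.3% higher and 21.8% lower.

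**Figure D4:**
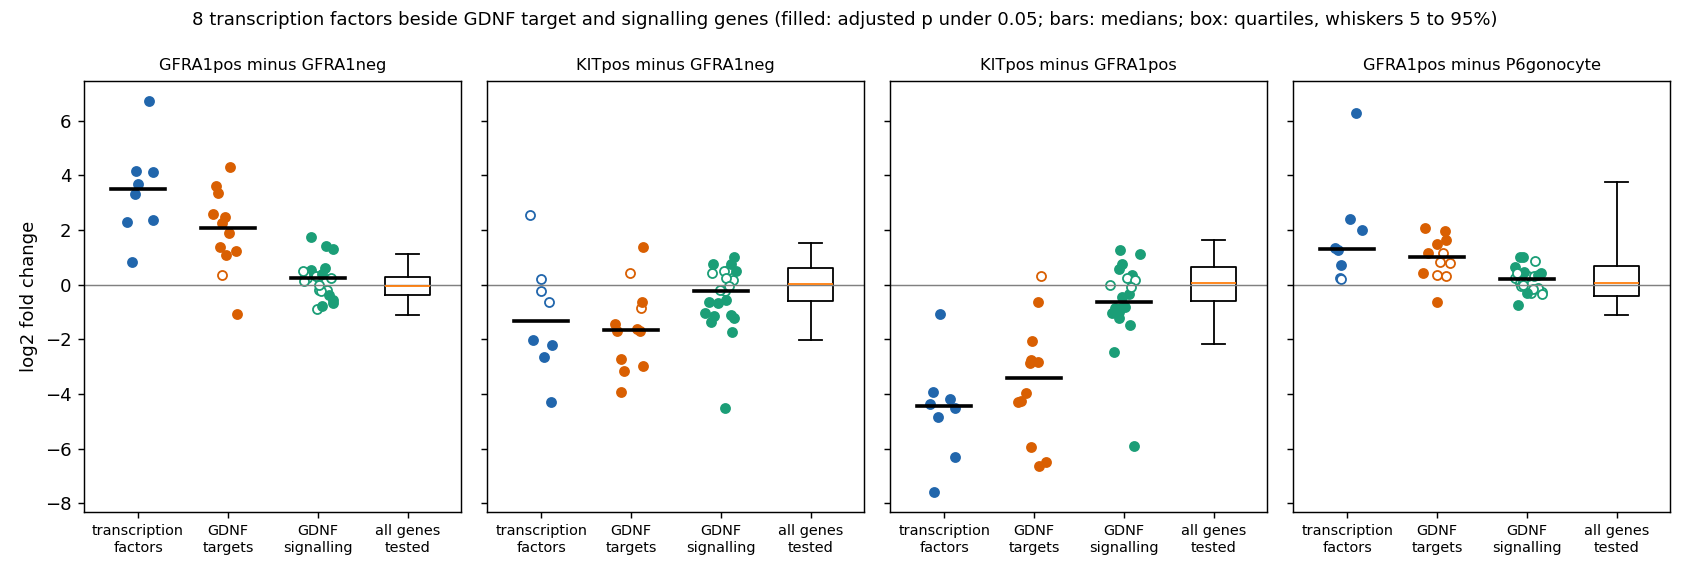
Log2 fold change (vertical axis) of the 8 transcription factors, 12 GDNF target genes and 22 tested signalling genes in 4 comparisons, beside all genes tested. Each point is a gene, filled where the edgeR adjusted p was under 0.05, bars are list medians, and the box shows the quartiles of all genes with whiskers at 5 and 95%. In GFRA1pos minus GFRA1neg the medians are 3.49 for the factors, 2.07 for the targets, 0.25 for the signalling genes and -0.04 for all genes. The factor median includes T and Pdx1, which entered the test only because they were high in GFRA1pos.

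Relatives of the 8 factors were mostly too low to test, with 3 of 9 passing the count filter (Bcl6, Pou3f2 and Tbx19). Bcl6, which encodes the repressor closest to BCL6B, was highest in GFRA1neg, where its 4 libraries ran from 35.5 to 58.8 scaled CPM. It averaged 2.74 ± 1.35 scaled CPM in KITpos (n = 5), 15.6 ± 2.54 in GFRA1pos, 47.7 ± 9.56 in GFRA1neg and 12.5 ± 2.08 in P6gonocyte (n = 4 each). Bcl6 was lower in GFRA1pos than in GFRA1neg (-1.62 ± 0.28, edgeR adjusted p = 0.00063), where Bcl6b was higher. Pou3f2 passed the filter through its GFRA1neg libraries alone, so its values are given without a test. It averaged 0.103 scaled CPM in KITpos, 0.14 in GFRA1pos, 1.71 in GFRA1neg and 0.517 in P6gonocyte. Tbx19 averaged 1 scaled CPM in KITpos, 1.03 in GFRA1pos and 0.836 in GFRA1neg and was at 0 in every P6gonocyte library.

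The genes whose profile over the 17 libraries was most like that of each factor were found by the root mean square difference of log2(CPM + 1) after centring, among 12275 genes whose mean reached 5 CPM in some group. For Etv5 they were Dusp6 (0.32), Spry4 (0.37) and the sort gene Gfra1 (0.53). Etv4 was nearest to Tagln2 (0.46), Lrp1 and Tmem132c (0.51 each), and Bcl6b to Rspo2 (0.44), Tcl1 (0.47) and Mtus1 (0.48). Lhx1 was nearest to the RNA gene A230070E04Rik (0.5), Gfpt2 (0.51) and Vsx1 (0.54). Pou3f1 was nearest to Zfp369 (0.17), Magi1 (0.21) and Padi3 (0.23), where the small differences of Pou3f1 itself allow a close fit. Eomes was nearest to Aldh1a3 and Sp6 (0.4 each) and Dlx3 (0.42), T to Mcam (0.36), Shisa6 (0.38) and Wscd1 (0.4), and Pdx1 to the imprinted RNA gene H19 (0.47), the homeobox gene En1 (0.51) and Tfap2a (0.52). These are descriptions over libraries that share the 4 groups.

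**Figure D5:**
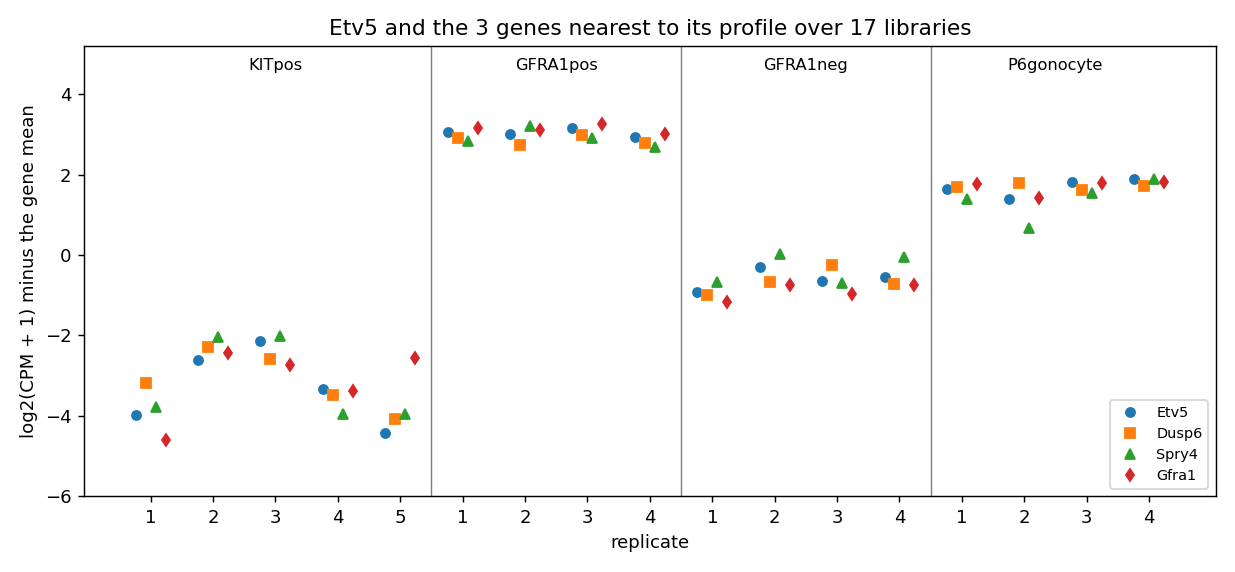
Centred log2(CPM + 1) (vertical axis) of Etv5 and of the 3 genes nearest to its profile, Dusp6, Spry4 and Gfra1, in each of the 17 libraries, by group and replicate number. Each symbol is a gene in a library. The 4 genes are highest in GFRA1pos, next in P6gonocyte, then in GFRA1neg, and lowest in KITpos.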

How the data were processed

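The 17 libraries were grouped by their titles. Per the labels' protocols, sorted cells went into Trizol LS, cDNA was made and amplified with Nugen Ovation V2, and Illumina Truseq V2 libraries were read as paired ends. Gene counts in the deposited table are raw whole numbers, which the authors left unnormalized as far as the values show. Tools in the submitters' processing notes, with no roles, are TopHat2 2.0.4, Bowtie2 2.0.0-6, Bowtie, Trim Galore, DESeq and DESeq2, and the build is mm9. The sources used here do not give the counting program, its annotation or its use of strand. In the column of GFRA1pos replicate 1, GFP stands for GFR; it was taken as that sample, being the sole column left for the title. RefSeq (GRCm38.p6) gave symbols by Entrez number for 23930 rows, and 83 rows had no match. Over 28 pairs of replicates, chi-square per degree of freedom was 4.13 to 51, so no pair agreed within counting error.

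The test was edgeR's quasi-likelihood test (edgeR 4.0.16, R 4.3.3), fitted to all 17 libraries with a mean for each group, scaled by TMM and filtered with filterByExpr, with Benjamini-Hochberg adjustment over 15451 genes and a threshold of 0.05. The same steps were run on simulated counts, with the same spread for every gene and changes planted only in well-counted genes. That run does not cover genes with few counts in a group, such as T and Pdx1. The common biological coefficient of variation was 0.3. Levels per kilobase divide by the union of GENCODE M21 exons. Where a group had 1 to 3 counts, ratios carry exact binomial intervals, which cover counting error only. The 8 factors and the lists were chosen with earlier results of these data known. Genes named are the 8 factors, the sort genes, up to 4 genes of each list with the smallest adjusted p in a comparison, the markers that moved with a comparison, some that did not pass, and the 3 nearest profiles of each factor. Alternatives were RLE and upper-quartile scaling, omission of the most abundant row, 2 other count filters, DESeq2 1.42.0, limma 3.58.1 voom with and without quality weights, fits of only the groups compared, a replicate block, and the omission of each replicate. A fit without the 4 libraries highest in spermatid transcripts, and a pseudocount of 0.1 for ratios, were added after the data were seen. Figures were drawn with matplotlib 3.10.9. The Sertoli marker Rhox5 was not analysed here.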

Additional observations from a re-analysis of the deposited data

Results flagged for a closer look

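In 6 of 32 checks, 1 for each factor in each group, the highest library stood apart from the others of its group by more than Dixon's 95% limit. Chance flags about 1 in 20 such checks, and 4 of the 6 were for Pdx1, where 2 groups were near 0. Etv4 stood at 3.89 scaled CPM in KITpos replicate 3. Pdx1 stood at 0.173 in KITpos replicate 5, where the other 4 libraries had no count, at 11.6 in GFRA1pos replicate 2, at 2.19 in GFRA1neg replicate 3, and at 0.361 in P6gonocyte replicate 2, where the other 3 had none. T stood at 0.197 in GFRA1neg replicate 4, the sole GFRA1neg library with a count.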

How the results depend on the processing

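T and Pdx1, which entered the test only because they were high in GFRA1pos, are among the 8 factors counted here. The counts of the 8 factors called in GFRA1pos minus GFRA1neg, KITpos minus GFRA1pos and, as lower, KITpos minus GFRA1neg did not move when any replicate was left out (8, 8 and 4). With a replicate left out they were 5 to 6 higher in GFRA1pos minus P6gonocyte and 0 to 1 higher in KITpos minus GFRA1neg; signalling genes were 3 to 7 higher and 1 to 5 lower in GFRA1pos minus GFRA1neg, 4 to 7 higher in KITpos minus GFRA1neg, and 0 to 2 lower in GFRA1pos minus P6gonocyte. The 2 signalling genes lower in GFRA1pos minus P6gonocyte were 1 under RLE or upper-quartile scaling, without the most abundant row, with no count filter and by DESeq2, and the 4 lower in GFRA1pos minus GFRA1neg were 2 with no count filter. KITpos minus GFRA1neg had 1 factor (T) higher in place of 0 by DESeq2 and without the 4 libraries highest in spermatid transcripts, and without those libraries 2 targets were higher in place of 1. Lhx1 in KITpos minus GFRA1neg, never called, was 0.2 on the log2 scale and turned to -0.33 by limma voom, -0.12 with quality weights, -0.08 without GFRA1neg replicate 1 and -0.45 without KITpos replicate 3, with a range of -0.45 to 0.6 as replicates were left out. The cause of these shifts was not tested.

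With the replicate number as a block, the 2 lower signalling genes were 1 and the fall of T in KITpos minus P6gonocyte was no longer called (-1.89, edgeR adjusted p = 0.077). Same-numbered libraries correlated at -0.458 to 0.517 over 24 pairs, with 6 over 0.1. In GFRA1pos minus GFRA1neg the correlations were 0.475, 0.517, 0.366 and 0.0329 for replicates 1 to 4. There 4 of 8 libraries correlated best with their own number, and the main test did not pair them. Depth limits T and Pdx1 most, since a total of 3 counts over a group is worth 0.0693 to 0.0924 scaled CPM.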
